A study of Mus musculus with 2 samples.

Results

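Among nuclei profiled from the hippocampus of 5XFAD mice, 146 neurons were selected for RNA of Prdm16 together with Ano1 or Igfbpl1, out of 37671 nuclei kept in the series. RNA of single nuclei was counted with unique molecular identifiers (UMIs), sequence tags that mark each captured RNA molecule once. A nucleus was kept when at least 500 genes were detected and under 5% of its UMIs came from mitochondrial genes. A kept nucleus was a member when it had at least 1 UMI of Prdm16 and at least 2 UMIs of Ano1 and Igfbpl1 summed. Nuclei with more than 3 UMIs of the astrocyte genes Slc1a3, Gja1 and Aqp4 were left out, as were those with more than 1 UMI of the endothelial genes Flt1 and Cldn5. Nuclei with at least 2 UMIs of both Rarb and Rgs9, a pair of striatal genes, were left out too. The members were therefore chosen on measured values, so every difference between them and other nuclei is given as a description with no test.

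The series holds 2 libraries, both from mice that were 8 months old and that carried 5XFAD, transgenes for mutant human amyloid precursor protein and presenilin placed behind the Thy1 promoter, which drives them in neurons and causes amyloid plaques. One library was labelled 5XFAD with MR1 knockout, MR1 being the molecule that presents small microbial metabolites to MAIT cells, an innate-like class of T cell. The other library was 5XFAD alone. Each library pooled the hippocampi of 1 female and 1 male mouse, so there is 1 library per genotype and no test between genotypes. Intervals below are 95% intervals for counting error only and say nothing of variation between mice. The library labelled MR1 knockout had 26212 barcodes with 85678909 UMIs and kept 22263 nuclei, and the 5XFAD library had 25238 barcodes with 106861726 UMIs and kept 15408. Mr1 itself had 93 UMIs in the kept nuclei of the library labelled MR1 knockout and 61 in those of the 5XFAD library. The sources used here do not say which exon was deleted or where these tags lie, so the count does not check the label.

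Prdm16 is a zinc finger transcription regulator of the PR domain family, known from neural stem cells and brown fat. Ano1 (TMEM16A) is a chloride channel opened by intracellular calcium, and Igfbpl1 is a secreted protein related to the insulin-like growth factor binding proteins, known from newborn neurons. Neurons of the ventral forebrain are mostly inhibitory: they make GABA with the enzymes Gad1 and Gad2, and the transcription factors that patterned them in the embryo, such as the Zic family in the septum, can stay switched on in the adult. In rodents the cation channel Trpc4 is known for high expression in the lateral septum, which lies next to the front of the hippocampus and is a target of hippocampal axons.

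All 146 members came from the 5XFAD library. In the library labelled MR1 knockout 0 of 22263 kept nuclei met the rule, which allows a share of up to 0.0135%, against 146 of 15408 (0.948%, with a Clopper-Pearson interval of 0.801 to 1.11%) in the 5XFAD library. With a floor of 3 counts in place of 0, the share was 70.3-fold lower in the library labelled MR1 knockout, with depth not matched. The rule counts UMIs, and kept nuclei of that library had a median of 2767 UMIs, against 4066 in the 5XFAD library. When every nucleus was thinned to 2000 UMIs before the rule, 0 of 14845 nuclei were members in the library labelled MR1 knockout. In the 5XFAD library 16 of 12211 (0.131%) were, so the fold at equal depth rests on few nuclei. The step that separated the libraries was the second gene. Prdm16 was seen in 335 kept nuclei of the library labelled MR1 knockout and in 753 of the 5XFAD library, but 2 or more UMIs of Ano1 and Igfbpl1 were also present in 1 of these in the library labelled MR1 knockout and in 163 in the 5XFAD library. Raising the mitochondrial limit did not bring members into the library labelled MR1 knockout: with no limit it held 0 and the 5XFAD library held 166.

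The members also came almost wholly from 1 of the 4 mice. Nuclei with at least 2 UMIs of Xist and none of the Y-linked genes Ddx3y, Eif2s3y, Kdm5d or Uty were taken as female, and nuclei with Y-linked UMIs and no Xist as male. In the female mice, 0 of 11729 nuclei, which allows up to 0.0256%, were members in the library labelled MR1 knockout and 1 of 6561 (0.0152%) in the 5XFAD library. In the male mice, 0 of 3668 nuclei, which allows up to 0.0818%, were members in the library labelled MR1 knockout. In the 5XFAD library 102 of 4122 (2.475%, interval 2.02 to 2.996%) were. At the same floor of 3 counts this was 30.3-fold lower in the library labelled MR1 knockout, again with depth not matched. Both mice of the 5XFAD library have the same genotype label, so these shares differed within a genotype. Of the other members, 43 had too few sex-linked UMIs for a call or RNA of both sexes. Nuclei with striatal markers (at least 2 UMIs of both Rarb and Rgs9, called striatal-marker neurons below) moved with the members: there were 5 in the library labelled MR1 knockout and 1047 in the 5XFAD library, of which 560 were male and 44 female. Genotype, mouse and the extent of the dissection cannot be told apart here.

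**Figure D1:**
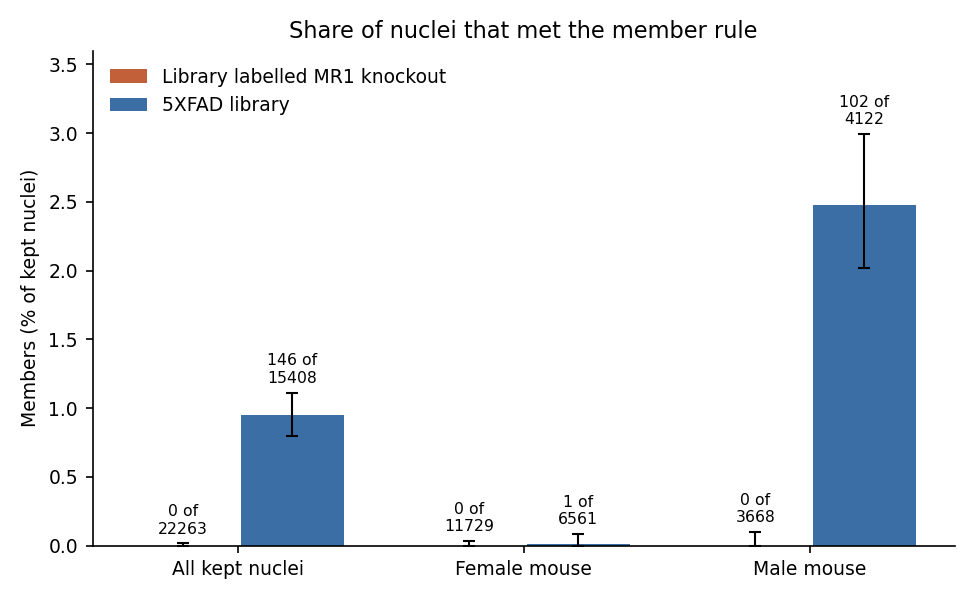
Share of kept nuclei that met the member rule (% of kept nuclei, vertical axis) in the library labelled MR1 knockout and in the 5XFAD library, for all kept nuclei, the female mouse and the male mouse of each; bars are shares, lines are exact binomial 95% intervals and the counts stand above. Members were seen in the male mouse of the 5XFAD library, where 102 of 4122 nuclei met the rule, and 1 was seen in its female mouse.

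When both libraries were clustered together on variable genes, 122 of the 146 members fell into a single cluster of 37, and the other 24 were spread over 8 clusters. The genes of the rule were not left out of the clustering, so this gathering draws in part on the values that chose the members. That cluster held 11 nuclei (0.0494%) of the library labelled MR1 knockout and 713 (4.63%) of the 5XFAD library, a ratio of 0.0107 (0.00531 to 0.0192). Its nuclei in the 5XFAD library were 469 male and 12 female, and in the library labelled MR1 knockout 1 male and 8 female. The 122 members were 17.1% of its 5XFAD nuclei, and the 591 others, called cluster neighbours below, failed the rule. Members were deeper, with a median of 7427 UMIs in members against 4041 UMIs in the neighbours. Member depths ran between 1736 and 33999 UMIs, with a median of 3100 genes detected. Of the 24 members outside the cluster, 15 were marked as doublets or held both Xist and Y-linked RNA, as were 15 of the 122 inside.

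The values that chose the members were low. Prdm16 had 272 UMIs over the 146 nuclei, with 1 UMI in 74 nuclei, 2 in 40 and 3 or more in 32, and at most 7. Ano1 had 382 UMIs and was seen in 137 members, while Igfbpl1 had 109 UMIs and was seen in 62. Both were present in 53 members, Ano1 without Igfbpl1 in 84, and Igfbpl1 without Ano1 in 9, so Ano1 carried the rule in most nuclei. Just outside the rule, 110 nuclei had Prdm16 and 1 UMI of Ano1 or Igfbpl1, and 85 of them lay in the same cluster, formed with these genes left in. The 68 members with exactly 2 UMIs of the pair had Trpc4 at 664 CPM (the gene's UMIs scaled to a fixed total for each class of nuclei) and Zic4 at 106 CPM, while these 110 nuclei had Trpc4 at 602 CPM and Zic4 at 85.3 CPM. A further 117 nuclei passed all but the Prdm16 limit. The 74 members with 1 UMI of Prdm16 had Trpc4 at 687 CPM and Zic4 at 72.5 CPM, while the 117 nuclei had Trpc4 at 472 CPM and Zic4 at 74.4 CPM. Nuclei 1 UMI outside the rule thus had levels of Zic4 near those of the members just inside, with Trpc4 somewhat lower. Prlr, the prolactin receptor, stood at 86.2 CPM in the 68 members with exactly 2 UMIs of the pair and at 41.9 CPM in the 110 nuclei with 1. A step further out, 376 nuclei with Prdm16 and 0 UMIs of the pair had Trpc4 at 329 CPM, Zic4 at 36.5 CPM and Prlr at 38.7 CPM, and 144 of them lay in the main cluster.

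The label calls the members neurons, and their RNA went with that. After thinning every nucleus to 2000 UMIs, which left 145 members, each gene's share of nuclei with a UMI was set against the share in 87 nuclei with oligodendrocyte markers, where neuronal RNA must come from outside the nucleus or from a second nucleus. A gene is called above background below when the member interval lay wholly above the oligodendrocyte interval. By this rule 603 of 17697 genes with any UMI in members (3.41%) were above background, as were 581 of 4210 genes with at least 50 UMIs in members (13.8%). Of 12 pan-neuronal markers, 9 were above background. Snap25, a protein of the synaptic vesicle fusion machinery, was in 76.5% of thinned members and 41.4% of thinned oligodendrocyte nuclei, and the neuronal RNA Meg3 in 100% of members and 60.9% of oligodendrocyte nuclei. The background was thus high for abundant neuronal RNA. Of 7 astrocyte markers outside the rule, 11 microglial markers and 8 endothelial markers, 0 were above background. Of the 8 endothelial markers 4 had any UMI in members and 0 had 50 or more, so their count says little. Of 10 oligodendrocyte precursor markers 2 were (Lhfpl3 and Tnr). The background nuclei were chosen for UMIs of Mog, Mag and Mobp and for none of Gad1, Gad2 or Slc17a7. That 0 of 10 oligodendrocyte markers were above background was therefore set by the choice and says nothing of the members. The oligodendrocyte markers summed to 560 CPM in members and 560 CPM in other GABAergic neurons (638 nuclei with at least 3 UMIs of Gad1 and Gad2 and none of Slc17a7), against 9917 CPM in oligodendrocyte nuclei.

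The members carried RNA of the GABA-making enzymes. Gad1 or Gad2 was seen in 129 of 146 members (88.4%). After thinning, Gad2 was in 35.2% of members, 30.9% of striatal-marker neurons and 0 of 87 oligodendrocyte nuclei, which allows up to 3.45%. Gad1 was in 31.7% of members, 20.2% of striatal-marker neurons and 0 of the 87. The 87 nuclei were chosen to hold no Gad1 or Gad2, so these 0 values follow from the choice and are no measure of background. Gad2 stood at 195 CPM (170 to 222) in members and 169 CPM in striatal-marker neurons, a ratio of 1.15 (1.00 to 1.33), so the level was close to that of another GABAergic class. Of the 10 GABAergic markers, Gad1, Gad2 and Dlx6os1, an RNA antisense to a Dlx gene of ventral forebrain neurons, were above background. The vesicular GABA transporter Slc32a1 was not, being in 15.2% of members and 4.60% of oligodendrocyte nuclei. Slc17a7, the vesicular glutamate transporter of cortical and hippocampal excitatory neurons, had UMIs in 49 members. After thinning it was in 8.28% of members (4.35 to 14.0%), 14.8% of striatal-marker neurons and 14.4% of the cluster neighbours. It was above background by the rule, but the 87 oligodendrocyte nuclei were chosen to hold none of it, so that call says little. Its level was 64.9 CPM in members and 181 CPM in all other kept nuclei. Slc17a6, the transporter of thalamic and hypothalamic excitatory neurons, had 1 UMI in all members.

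Of the 22 marker lists, the one for lateral septal neurons had 6 of 18 genes (33.3%) above background. The list for islands of Calleja granule neurons had the same share, 2 of 6 (Nxn and Tmem255a), and the GABAergic list 3 of 10 (30.0%). The 6 septal genes were Trpc4, Zic1, Zic2, Zic4, Homer2 and Gabrg1. Summed over its 18 genes the list reached 1472 CPM in members and 1291 CPM in the cluster neighbours, against 581 CPM in other GABAergic neurons and 245 CPM in striatal-marker neurons. Trpc4 was the largest single part of the sum in members. It had 867 UMIs in 140 of 146 members and stood at 731 CPM (683 to 781), against 269 CPM in other GABAergic neurons and 88.3 CPM in striatal-marker neurons. Thinned, it was in 77.2% of members, 30.2% of other GABAergic neurons and 9.20% of oligodendrocyte nuclei. Other genes of the list were sparse or not above background: Nts, which encodes neurotensin, was in 8.97% of thinned members and 4.60% of oligodendrocyte nuclei, and Crhr2, a receptor for corticotropin-releasing factor peptides, had 16 UMIs in 11 members. The tissue was labelled hippocampus and the genes of the list are also known outside the septum, so no region is assigned.

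Of 10 medial septal and cholinergic markers, 11 medial habenula markers, 11 hypothalamic markers and 9 dentate granule markers, 0 were above background, and the cholinergic genes Slc18a3 and Lhx8 were at 0 UMIs. Of the interneuron list, 3 of 15 (Kcnc2, Ndnf and Nxph1) were above background. The interneuron peptide Sst was in 17.2% of thinned members and 31.0% of oligodendrocyte nuclei, so its UMIs in 72 members are read as background. Of the striatal medium spiny list, 1 of 16 (Pde10a, a phosphodiesterase) was above background. Of the immature neuron list 2 of 11 outside the rule were, Dcx, a microtubule protein of migrating neurons, and Dlx6os1, while Sox11, Sox4 and Eomes were not. A few genes of other lists were above background: Meis2 and Prkcd of 10 for amygdala neurons, Man1a and Cpne4 of 10 for CA pyramidal neurons, Camk2a besides Slc17a7 of 10 for glutamatergic neurons and Necab1 of 10 for thalamic neurons. Of the lists for Cajal-Retzius cells (8 genes) and for leptomeningeal, ependymal and choroid plexus cells (12 genes), 0 were. In each, 6 genes had any UMI in members.

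**Figure D2:**
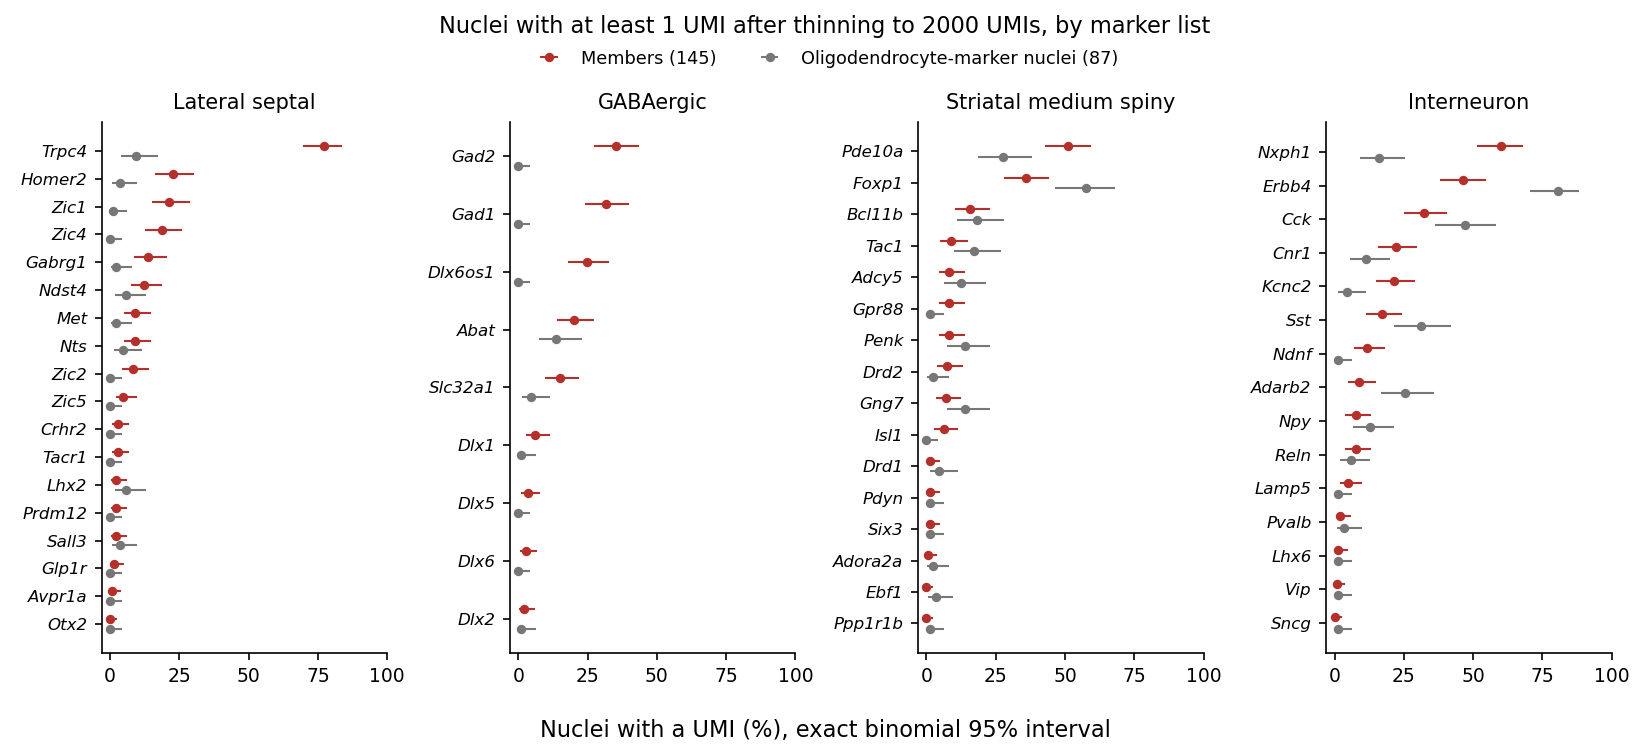
Share of nuclei with at least 1 UMI after thinning to 2000 UMIs (%, horizontal axis) for genes of 4 marker lists, in 145 members and in 87 oligodendrocyte-marker nuclei as the level of background; points are shares and lines exact binomial 95% intervals. Trpc4 stands apart at 77.2% of members. The intervals of Gad1, Gad2, Zic1, Zic2 and Zic4 lie above those of the oligodendrocyte nuclei, and those of Zic5 and most striatal and interneuron markers do not. The oligodendrocyte nuclei were chosen to hold no Gad1 or Gad2.

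Against all other kept nuclei of the 5XFAD library, a set of genes was high in members. Of 4210 genes with at least 50 UMIs in members, 196 (4.66%) were at least 2-fold higher and 69 (1.64%) at least 2-fold lower. Against the other nuclei of the male mouse alone, 149 (3.54%) were higher and 65 (1.54%) lower. Letting in genes that would reach 50 UMIs at the comparison level, so that genes lost in members can count too, gave 195 of 4629 (4.21%) higher and 182 (3.93%) lower against all other nuclei, and 149 of 4609 (3.23%) higher and 155 (3.36%) lower against those of the male mouse. The 20 genes with the highest ratio held transcription factors (Zic1, Zic4, Zfhx3, Zfp521, Dach2), signalling genes (Prkcd, Prlr, Grk5), a second anoctamin (Ano2) and a secreted peptidase (Cpa6). The cluster neighbours stood below the members in CPM in 16 of the 20 and above them in Ankfn1, Zic1, Zfhx3 and Zfp521. The 20 were picked for being high in members over nuclei that include these neighbours, so the 16 follow in part from that choice.

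Prkcd encodes protein kinase C delta, known as a marker of neuron groups in the amygdala. It had 130 UMIs in 68 members and stood at 110 CPM (91.5 to 130), against 23.5 CPM in other GABAergic neurons and 6.91 CPM in striatal-marker neurons, ratios of 4.66 (3.54 to 6.16) and 15.9 (11.6 to 21.8). Some of the other GABAergic neurons lie in the members' own cluster, and with those left out, a choice made after seeing the data, the first ratio was 11.9 (7.95 to 18.3). Prlr, the prolactin receptor, had 125 UMIs in 47 members and stood at 105 CPM, against 23.8 CPM in other GABAergic neurons, a ratio of 4.44 (3.37 to 5.87), or 7.004 without the nuclei of the members' cluster. The ratios were wide of 1 in both, though the thinned share of Prlr, 13.8% of members against 3.45% of oligodendrocyte nuclei, did not clear the background rule. Ano2, the calcium-gated chloride channel of olfactory neurons and photoreceptors, stood at 160 CPM (138 to 185) in members, 33.5 CPM in other GABAergic neurons and 52.4 CPM in striatal-marker neurons. Members chosen partly for Ano1 thus also had the higher level of this relative, with ratios of 4.79 (3.81 to 6.03) and 3.06 (2.57 to 3.63). The first was 9.84 (7.23 to 13.6) without the nuclei of the members' cluster. Zfhx3, a large homeodomain and zinc finger factor, stood at 582 CPM in members and 199 CPM in other GABAergic neurons, a ratio of 2.93 (2.64 to 3.25), or 7.04 (6.11 to 8.14) without the nuclei of the members' cluster.

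Cell surface and trafficking genes were among the same 20. Gpc3, a heparan sulphate proteoglycan, stood at 176 CPM in members, 42.9 CPM in other GABAergic neurons and 6.79 CPM in striatal-marker neurons. Myo5b, a motor of recycling endosomes, stood at 315 CPM in members, 102 CPM in other GABAergic neurons and 27.4 CPM in striatal-marker neurons, and was seen in 109 members. Grk5, a kinase that turns off G protein-coupled receptors, was seen in 102 members and stood at 244 CPM, against 75.6 CPM in other GABAergic neurons. Myo5b and Grk5 were thus seen in most members, while Gpc3 was seen in 56 of 146 and the 115 UMIs of Dach2 lay in 13.

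**Figure D3:**
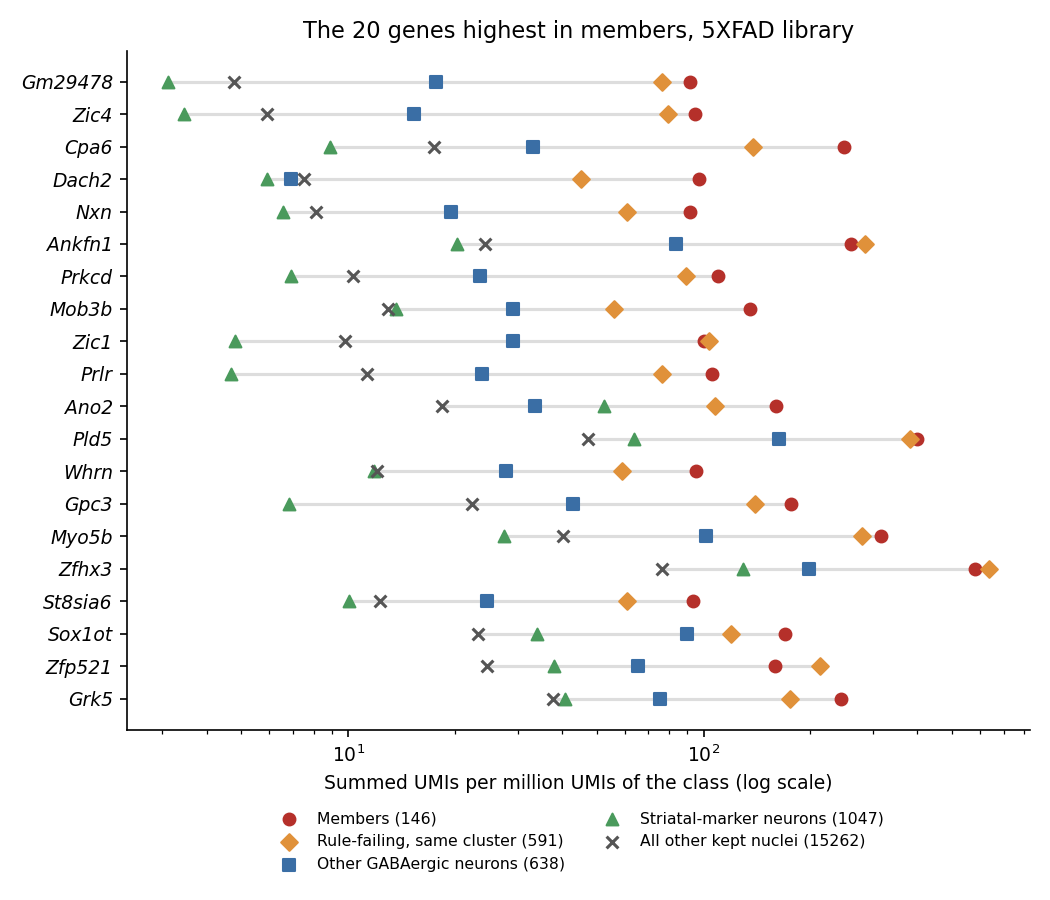
Level of the 20 genes with the highest ratio of members over other kept nuclei of the 5XFAD library, in CPM over the class (log axis), in members, cluster neighbours that failed the rule, other GABAergic neurons, striatal-marker neurons and all other kept nuclei, with the number of nuclei in the legend. Members and cluster neighbours lie to the right of the other classes for all 20 genes.

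The Zic genes encode zinc finger transcription factors of the embryonic dorsal midline. Zic1 and Zic4 are neighbours on chromosome 9 that read in opposite directions, from starts 3204 bases apart in the RefSeq annotation. In the GENCODE annotation Zic1 lies at chr9:91358058-91365810 on the minus strand and Zic4 at chr9:91362413-91389348 on the plus strand (GRCm38). There the span of Zic4 begins inside Zic1, at another place than its RefSeq start, so part of the genes overlap. The sources used here do not say whether reads were split by strand. The noncoding gene Gm29478 follows at chr9:91404474-91562818. Zic1 had 119 UMIs in 73 members and stood at 100 CPM (83.1 to 120), against 29.1 CPM in other GABAergic neurons and 4.79 CPM in striatal-marker neurons. Zic4 had 112 UMIs in 66 members and stood at 94.4 CPM (77.7 to 114), against 15.3 CPM in other GABAergic neurons and 3.45 CPM in striatal-marker neurons. Gm29478 had 109 UMIs in 49 members and stood at 91.9 CPM, against 17.6 CPM in other GABAergic neurons, a ratio of 5.21 (3.82 to 7.16). Without the nuclei of the members' cluster, the other GABAergic neurons had Zic1 at 11.7 CPM, Zic4 at 4.91 CPM and Gm29478 at 5.83 CPM, and the ratios of members to them were 8.60 (5.92 to 12.7), 19.2 (11.3 to 34.8) and 15.8 (9.62 to 27.2). All 3 genes of this stretch were thus high in the members. Zic1 or Zic4 was seen in 104 members (71.2%), both in 35, Zic1 alone in 38 and Zic4 alone in 31, at counts too low to tell absence from a missed molecule. A second Zic pair, on chromosome 14, was sparser: Zic2 had 38 UMIs in 32 members and Zic5 had 44 in 31, with ratios over other GABAergic neurons of 5.45 (3.17 to 9.59) and 7.64 (4.37 to 13.9). The cluster neighbours had Zic1 at 104 CPM and Zic4 at 79.6 CPM.

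The promoters of Zic1 and Zic4 are shown because this pair of neighbours was high together while their start regions differ in base composition. Each covers 250 bases before the start and 50 after it, on the strand of the gene, from RefSeq on GRCm38.p6. Zic1 is read at chr9:91365719-91366018 (minus strand) and Zic4 at chr9:91368722-91369021 (plus strand). Capitals mark CCAAT, a box searched in its letters on the gene's strand and on the other strand.

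Zic1: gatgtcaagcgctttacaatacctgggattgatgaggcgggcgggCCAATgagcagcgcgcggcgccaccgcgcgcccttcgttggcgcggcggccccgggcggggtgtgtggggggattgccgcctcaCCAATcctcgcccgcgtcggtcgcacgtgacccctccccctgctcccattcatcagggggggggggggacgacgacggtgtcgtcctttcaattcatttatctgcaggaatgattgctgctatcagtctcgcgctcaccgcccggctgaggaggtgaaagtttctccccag

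Zic4: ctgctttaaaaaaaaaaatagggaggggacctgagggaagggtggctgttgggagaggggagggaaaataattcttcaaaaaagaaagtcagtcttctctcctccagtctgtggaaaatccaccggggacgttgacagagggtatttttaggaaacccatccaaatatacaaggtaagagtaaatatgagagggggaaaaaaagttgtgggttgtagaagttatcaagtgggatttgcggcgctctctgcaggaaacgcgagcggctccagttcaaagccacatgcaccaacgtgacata

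The Zic1 window is 65.3% G and C and holds 2 CCAAT matches, and the Zic4 window is 46.0% G and C and holds 0. The letters TATAAA, searched on both strands, were in neither window. Of 32851 promoters of the same length, 37.4% hold CCAAT and 13.6% hold TATAAA, and their median content of G and C is 52.7%. A match in these letters is a description of the window and not a site in use.

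Several genes known from hippocampal or striatal neurons were low in members. Glis3, a zinc finger factor listed for dentate granule neurons, stood at 14.3 CPM (8.35 to 22.9) in members and 101 CPM in all other nuclei. The ratio was 0.141 (0.0823 to 0.226) against those nuclei, and 0.431 against the male mouse's other nuclei. With nuclei marked as doublets or holding RNA of both sexes left out, the 116 members still in had 3 UMIs of Glis3 and all other nuclei had 96.1 CPM, a ratio of 0.0364. Unc13c, a vesicle priming protein, stood at 20.2 CPM in members and 99.3 CPM in all other nuclei. Tshz2, a zinc finger factor, stood at 27.0 CPM in members and 129 CPM in all other nuclei, and Cdh9, a cadherin of hippocampal synapses, at 62.4 CPM in members and 289 CPM in those nuclei. Kctd8, an auxiliary subunit of GABA-B receptors, stood at 27.8 CPM in members and 126 CPM in all other nuclei. Each of these 5 was also under 1 against the other nuclei of the male mouse.

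The other GABAergic neurons were chosen on their Gad UMIs, so their Gad levels follow from that choice. Of the 638, 105 (16.5%) lay in the members' main cluster. Of 4210 genes, 136 (3.23%) were at least 2-fold higher in members and 72 (1.71%) at least 2-fold lower, and 204 (4.85%) and 84 (2.0%) were so with these 105 nuclei left out. With the wider filter 133 of 4648 (2.86%) were higher and 162 (3.49%) lower, and 199 of 4659 (4.27%) and 206 (4.42%) with the 105 left out. Genes of cortical and hippocampal interneurons were among the lowest: 7 of 11 measured interneuron markers were at least 2-fold lower and 0 higher. Col19a1, a collagen of interneurons, had 6 UMIs in members and stood at 5.06 CPM, against 254 CPM in other GABAergic neurons, a ratio of 0.0199 (0.00729 to 0.0435). Kcnmb2, a subunit of large-conductance potassium channels, stood at 33.7 CPM in members and 615 CPM in other GABAergic neurons. Adarb2, an RNA-editing enzyme relative that marks interneurons of the caudal ganglionic eminence, stood at 148 CPM in members and 2297 CPM in other GABAergic neurons. The factors Sox6 and Maf, known from interneurons of the medial ganglionic eminence, had ratios of 0.0776 (0.0432 to 0.129) and 0.0806 (0.0438 to 0.136), and without doublet-marked and both-sex nuclei the ratios were 0.0426 for Sox6 and 0.0524 for Maf. Members were thus low in genes of both interneuron origins. On the high side, Col23a1, a transmembrane collagen, stood at 85.1 CPM in members and 14.8 CPM in other GABAergic neurons, and Palmd, which encodes palmdelphin, at 119 CPM in members and 26.3 CPM in those neurons. Without the nuclei of the members' cluster the ratios were 12.1 (7.61 to 19.9) for Col23a1, in place of 5.75, and 7.90 (5.67 to 11.2) for Palmd, in place of 4.52.

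Of the 1047 striatal-marker neurons, 5 lay in the main cluster. Of 4210 genes, 263 (6.25%) were at least 2-fold higher in members and 121 (2.87%) at least 2-fold lower, and with the wider filter 261 of 4605 (5.67%) were higher and 283 (6.15%) lower. All 11 measured genes of the medium spiny list outside the rule were at least 2-fold lower in members. The striatal-marker neurons were chosen for Rarb and Rgs9, a pair the member rule leaves out, so this follows in part from the choice. Against other GABAergic neurons 1 of 7 measured genes of the list (Tac1) was at least 2-fold lower, and against all other kept nuclei 0 of 7. The dopamine receptor Drd1 stood at 4.21 CPM in members and 81.8 CPM in striatal-marker neurons, and the receptor Drd2 at 34.6 CPM in members and 90.3 CPM in striatal-marker neurons. The enkephalin precursor Penk stood at 51.4 CPM in members and 214 CPM in striatal-marker neurons. Ebf1, a transcription factor of direct-pathway striatal neurons, had 0 UMIs in members, which allows up to 2.53 CPM at 3 counts, against 86.9 CPM in striatal-marker neurons, at least 34.4-fold lower. Rarb and Rgs9 were low in members by the rule. Drd2 was seen in 29 members, at a ratio of 0.383 (0.272 to 0.524) to striatal-marker neurons, while Drd1 was seen in 5. Leaving out doublet-marked and both-sex nuclei, which kept 694 of the 1047 striatal-marker neurons, lowered many genes in the striatal-marker neurons that are not striatal markers, so that ratios of members to them grew: to 33.4 for Prkcd, in place of 15.9, to 18.0 for Trpc4, in place of 8.27, and to 39.1 for Zic1, in place of 20.9.

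Ion channels and receptors set the members apart from both GABAergic classes in part. The transient receptor potential channels Trpc4 and Trpm3 were at least 2-fold higher against both classes, beside 2.86% of all genes higher than in other GABAergic neurons. Over all genes the other shares to read the lists below against are 3.49% lower than in other GABAergic neurons, and 5.67% higher and 6.15% lower than in striatal-marker neurons. Trpm3, a cation channel opened by the steroid pregnenolone sulphate, stood at 2135 CPM in members and 765 CPM in other GABAergic neurons, a ratio of 2.79 (2.65 to 2.94). Of the 4 anoctamins measured, Ano2 was higher and Ano6, a lipid scramblase, was at 102 CPM in members and 97.3 CPM in other GABAergic neurons. Slc12a5, the cotransporter that keeps chloride low in neurons, was at 175 CPM in members and 172 CPM in other GABAergic neurons, a ratio of 1.02 (0.869 to 1.19).

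Receptors for monoamines, acetylcholine, GABA and glutamate showed a few differences in long lists. Htr7, a serotonin receptor that raises cyclic AMP, stood at 117 CPM (98.5 to 138) in members, 51.3 CPM in other GABAergic neurons and 10.6 CPM in striatal-marker neurons. It was the single one of 8 measured receptors for monoamines and acetylcholine that was at least 2-fold higher than in other GABAergic neurons, and Htr7, Chrm2 and Chrm3 of 10 were so against striatal-marker neurons. A single gene of a list this short says nothing of the list. Chrm2, a muscarinic receptor that inhibits release, stood at 126 CPM in members, 143 CPM in other GABAergic neurons and 23.3 CPM in striatal-marker neurons. Of 15 measured GABA and glycine receptor genes 0 passed 2-fold either way against other GABAergic neurons, though Gabra2 and Gabrg1 were higher without the nuclei of the members' cluster. Against striatal-marker neurons the subunits Gabra3, Gabrg1 and Glra2 were higher and Gabra4 and Gabrd lower, of 16. Gabrg1 stood at 101 CPM in members and 18.4 CPM in striatal-marker neurons, while Gabrd, a subunit of extrasynaptic receptors, stood at 10.1 CPM in members and 51.0 CPM in striatal-marker neurons. Subunits of 1 receptor family thus differed in direction. Of 20 measured glutamate receptor genes, Grm8, a presynaptic receptor that lowers release, was higher against both classes, at 866 CPM in members, 277 CPM in other GABAergic neurons and 137 CPM in striatal-marker neurons. Grik1, a kainate receptor subunit of interneurons, stood at 237 CPM in members and 842 CPM in other GABAergic neurons.

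Among 25 measured potassium channel genes, Kcnn3 was at least 2-fold higher than in other GABAergic neurons, and Kcnc1, Kcnc2, Kcnmb2 and Kctd8 were at least 2-fold lower. The 1 of 25 higher is near the 2.86% over all genes, and the 4 of 25 lower stand beside 3.49%. Kcnn3, a small-conductance channel opened by calcium, stood at 185 CPM (162 to 212) in members, 46.2 CPM in other GABAergic neurons and 64.6 CPM in striatal-marker neurons. The cluster neighbours were lower, at 93.9 CPM. Kcnc2, a channel of fast-spiking interneurons, stood at 153 CPM in members, 1153 CPM in other GABAergic neurons and 112 CPM in striatal-marker neurons. Its ratio to striatal-marker neurons, 1.37, was 5.02 without doublet-marked and both-sex nuclei. Of 18 measured sodium, calcium and HCN channel genes, Cacna1e, the R-type calcium channel, was higher and Cacna2d3 lower than in other GABAergic neurons, counts near the shares over all genes. Cacna2d2 and Cacna2d3 are related auxiliary subunits of calcium channels. Cacna2d2 stood at 225 CPM in members and 57.4 CPM in striatal-marker neurons, a ratio of 3.92 (3.37 to 4.56), and Cacna2d3 at 260 CPM in members and 1752 CPM in striatal-marker neurons, a ratio of 0.149 (0.132 to 0.166). Without doublet-marked and both-sex nuclei, Cacna2d3 stood at 131 CPM in members and 2332 CPM in striatal-marker neurons, a ratio of 0.0560.

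**Figure D4:**
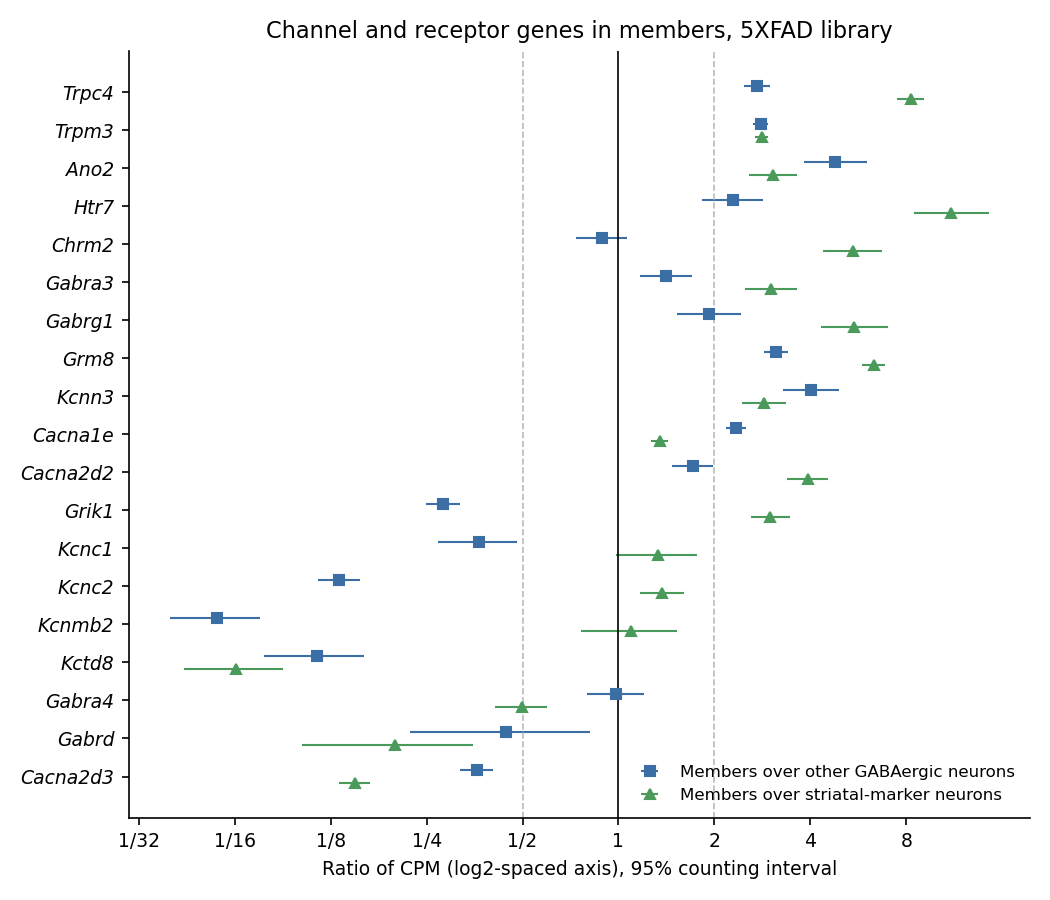
Ratio of CPM in members over other GABAergic neurons and over striatal-marker neurons (axis spaced by log2) for channel and receptor genes of the 5XFAD library; points are ratios, lines 95% counting intervals, and dashed lines mark 2-fold either way. Trpc4, Trpm3, Ano2, Htr7, Grm8 and Kcnn3 lie above 2 in both comparisons, Kctd8 and Cacna2d3 lie below 1/2 in both, and Kcnc2 and Grik1 are low against GABAergic neurons alone.

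Patterning and wiring genes varied in both directions. Of 15 measured transcription factors of the forebrain list, Zic1, Zic4, Zfhx3 and Zfhx4 were at least 2-fold higher than in other GABAergic neurons and Tshz2 and Tshz3 lower. Against striatal-marker neurons, a class chosen for striatal genes, 3 of 17 were higher and 8 lower. The lower ones included Foxp1, Foxp2, Bcl11b and Ebf1, all known from striatal neurons. Meis2, a homeodomain factor of ventral forebrain neurons, stood at 574 CPM in members, 441 CPM in other GABAergic neurons and 956 CPM in striatal-marker neurons. Of 34 measured guidance and adhesion genes, 4 were higher and 5 lower than in other GABAergic neurons, the higher ones being Nrp1, Slit1, Ephb1 and Cdh7, beside 2.86% higher and 3.49% lower over all genes. Slit1, a secreted repellent, stood at 126 CPM in members and 41.4 CPM in other GABAergic neurons. Cdh18, a cadherin, stood at 1236 CPM in members, 682 CPM in other GABAergic neurons and 470 CPM in striatal-marker neurons. Of 12 other PRDM genes and 13 other genes of the insulin-like growth factor system, 0 were above background, near the 3.41% over all genes with a UMI in members.

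In the neuropeptide lists 0 of 24 precursors and 0 of 32 receptors were above background. Over all genes with a UMI in members 3.41% were, so these counts are near that share and say little of neuropeptides. The lists tied to the study's question held few differences from the comparison neurons. Of 9 measured genes of amyloid precursor processing, 0 passed 2-fold against other GABAergic neurons. App was at 729 CPM (681 to 779) in members and 701 CPM in other GABAergic neurons. Whether tags of the human transgene count towards it was not tested. Thy1, whose promoter drives the transgenes, stood at 251 CPM in members and 329 CPM in other GABAergic neurons. Mr1 had 0 UMIs in members, which allows up to 2.53 CPM. No gene of the 25 for interferon response had enough UMIs to be measured, and of 20 for MHC class I and peptide loading 4 were measured and 0 passed 2-fold. Of 24 measured nuclear genes of oxidative phosphorylation 1 (Sdhb) was lower, with a list median of -0.40 on the log2 scale against 0.01 over all genes. Against the same neurons, 0 of 15 measured genes for lysosome and autophagy, 0 of 10 for heat shock, 0 of 30 for cytosolic ribosomal proteins and 0 of 23 for axonal transport passed 2-fold, and 1 of 22 for synaptic vesicle release did (Unc13c, lower). Of 20 immediate-early genes, 1 was measured and it did not pass 2-fold.

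Members differed among themselves in genes that were abundant in some nuclei and missing in others. Among genes with at least 100 UMIs in at most 73 members, the 15 with the most UMIs per nucleus that had any are shown, a choice made after the counts were seen. Tafa1, a secreted protein of the TAFA family, had 1008 UMIs in 68 members and up to 125 in 1 nucleus. Zfp804b had 661 UMIs in 58 members. Foxp2, a forkhead factor of striatal and other projection neurons, had 3 or more UMIs in 17 members, 14 of them in the main cluster. Cpa6 had 3 or more UMIs in 36 members, 34 of them in the main cluster. No member had 3 or more UMIs of both Foxp2 and Cpa6, where the product of their shares would give 4.19 nuclei. This is 1 of the many pairs among the 15 genes and was named after the counts were seen. The product takes no account of depth, doublets or the choice of the pair. Of the 17 members with 3 or more UMIs of Foxp2, 12 also had 3 or more of Zfp804b, 11 of Sgcz and 11 of Il1rapl2. Of the 36 with 3 or more UMIs of Cpa6, 7 also had 3 or more of Zfp804b, 8 of Sgcz and 5 of Il1rapl2. The Foxp2 and the Cpa6 nuclei thus differed in these 3 genes, which were also picked from the 15. Whether they are separate kinds of nuclei was not tested. Trpc4 was seen in 140 members, with 18.1% of its UMIs in the 10 nuclei that had most, and Gad2 in 95 members with 28.6%, against 72.3% for Foxp2 and 48.8% for Cpa6. The noncoding gene Gm20754 had 3 or more UMIs in 17 members, and 15 of these were marked as doublets or held RNA of both sexes. The part of doublets in that value was not tested.

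**Figure D5:**
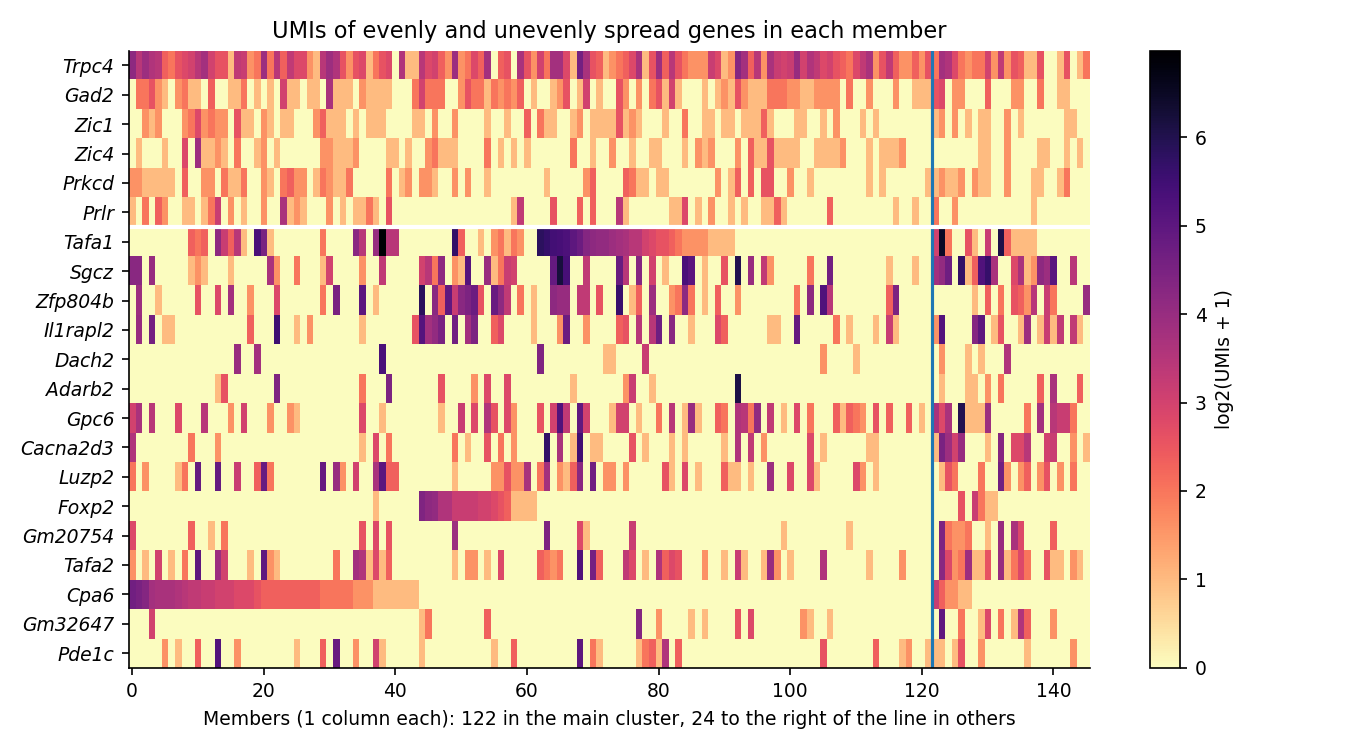
UMIs of 6 genes named above (top rows) and 15 unevenly spread genes (lower rows) in each of the 146 members, 1 column per nucleus, coloured by log2(UMIs + 1); members of the main cluster lie left of the vertical line and the 24 others right of it. Of the top 6, Prlr was itself uneven, seen in 47 members with 53.6% of its UMIs in 10 nuclei. Columns with high Cpa6 and columns with high Foxp2 do not coincide.

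The rarity of members in the library labelled MR1 knockout extended to some of their genes and not to others. Over all kept nuclei, Zic4 had 91 UMIs in the library labelled MR1 knockout and 586 in the 5XFAD library, a CPM ratio of 0.158, with a ratio of 0.189 for Zic1 and 0.173 for Gm29478. Ano1 had 89 UMIs in the library labelled MR1 knockout and 923 in the 5XFAD library, a ratio of 0.0981. Prlr had 1809 UMIs in the library labelled MR1 knockout and 1032 in the 5XFAD library, a ratio of 1.78, and the ratio was 1.04 for Cpa6 and 1.12 for Nxn. These last 3 genes were thus carried by other nuclei of the library labelled MR1 knockout. In the 11 nuclei of that library in the main cluster, Prdm16 and Igfbpl1 had 0 UMIs, Ano1 had 2, Zic4 had 9 and Prlr had 10, out of 35583 UMIs in all. In the 713 nuclei of the 5XFAD library in the cluster, Prdm16 had 601 UMIs, Igfbpl1 211, Ano1 627, Zic4 326 and Prlr 332, out of 3749220.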

How the data were processed

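Nuclei of flash-frozen hippocampus were profiled by 3' droplet sequencing (10x Genomics) with about 20 mg of tissue and a target of 10000 nuclei per library, per the labels' protocols. The deposited files hold raw counts, whole UMIs per gene and barcode, made by the authors with Cell Ranger 7.0.0; the submitters' processing notes also name mm10 and Seurat. The sources used here do not give the annotation release, the strand setting or whether introns were counted. Of 32285 gene IDs, 32158 matched GENCODE M21, which gave coordinates.

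Raw UMIs of 146 members were summed and scaled to CPM, and set against other nuclei of the same library. Intervals are at 95% and cover counting error only: Clopper-Pearson for shares, Poisson for CPM, and the conditional binomial for ratios, all exact. PCR duplicates were removed through UMIs. There was no test. The mitochondrial limit removed 8.92% of barcodes in the library labelled MR1 knockout and 35.8% in the 5XFAD library, and kept nuclei had a median of 2767 UMIs in the library labelled MR1 knockout and 4066 in the 5XFAD library. The libraries share 182 barcodes, and 1 member barcode is also in the other library. Scrublet in scanpy 1.11.5 marked doublets at 0.8% per 1000 kept nuclei, 17.8% of nuclei in the library labelled MR1 knockout and 12.3% in the 5XFAD library, which were kept unless stated. Clustering used 2500 variable genes, 40 principal components, 20 neighbours and Leiden at a resolution of 1.5, with the genes of the rule left in. List medians use genes with at least 50 UMIs in members or expected in them and a prior count of 0.5.

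Because the library labelled MR1 knockout held no member, genes and lists could not be compared between libraries in members, and the demand for the same direction in both was applied to the 5XFAD library. The members, the marker lists and the gene lists were chosen with earlier results of these data known. Named genes were the 20 highest and 10 lowest against all other nuclei and the 10 and 10 against each GABAergic class, with at least 100 UMIs, plus list genes above background or with most UMIs. Not all of them are printed, and some list genes are not reported here. The calculation was tested on simulated data: of 200 genes changed 4-fold among 4188, 100% were recovered, and intervals held 1 for 95.4% of the others.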

Additional observations from a re-analysis of the deposited data

How the results depend on the processing

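Most settings took a subset of the nuclei or tightened the rule, so the 0 members in the library labelled MR1 knockout could only stay 0. Where the rule was loosened, dropping the mitochondrial limit left 0 members there. With Ano1 and Igfbpl1 summed at 1 UMI or more, 2 nuclei of that library met the rule. The share in the 5XFAD library, 0.948% as reported, moved with how members were picked. It was 1.56% under a mitochondrial limit of 1%, 0.706% with no such limit, 0.467% with 2 or more UMIs of Prdm16, 0.506% with 3 or more of Ano1 and Igfbpl1, and 1.66% with 1 or more. It was 0.792% for the main cluster's members alone and 0.131% when nuclei were thinned to 2000 UMIs before the rule. By mouse it was 2.475% in the male and 0.0152% in the female, and 0.0152% too where that female was set against the male of the library labelled MR1 knockout. Against other GABAergic neurons, the male mouse alone gave 76 genes at least 2-fold higher and 40 lower, in place of 136 and 72, with fewer nuclei on both sides. Against all other nuclei, thinning gave 94 higher and 22 lower, in place of 196 and 69, with fewer UMIs and so fewer genes past the filter. Settings chosen after seeing the data left out the main cluster's nuclei from the comparison, or doublet-marked and both-sex nuclei together. Over all settings, 70 ratios of named genes gave 430 values, of which 316 moved by less than the counting interval, 114 by more, and 0 changed direction. These genes were picked as the highest and lowest in the main setting, and the settings reuse the same nuclei. That 0 changed direction was thus nearly set by the choice. Gene and list comparisons between libraries, with their scaling, depth and low-count alternatives, could not be run because the library labelled MR1 knockout held no member, nor could female-mouse gene ratios, with 1 member. Few UMIs limit the sparse genes: absence in a nucleus cannot be told from a missed molecule. No paired analysis was possible because each group is 1 library and no replicate numbers are given.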

Other observations

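Some genes outside the members' rule were also lower in the library labelled MR1 knockout, though by less than the share of members before depth was matched. Drd2, the dopamine receptor of indirect-pathway striatal neurons, had 156 UMIs over the kept nuclei of the library labelled MR1 knockout and 1495 over those of the 5XFAD library, a CPM ratio of 0.106. Chat, which makes acetylcholine, had 13 UMIs in the library labelled MR1 knockout and 138 in the 5XFAD library, a ratio of 0.0958, and only 4 of these lay in members. Tac1, a tachykinin precursor, had a ratio of 0.264 and Foxp2 a ratio of 0.251. Zic2 and Zic5, sparse relatives of Zic1 in the members, had ratios of 0.869 and 0.726, close to even over the libraries. Crhr2 had 197 UMIs in the library labelled MR1 knockout and 107 in the 5XFAD library, of which 16 lay in members.

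The main cluster of the members was led by Ano1, Gm29478, Zic4, Col6a3, Prdm16, Igfbpl1, Abcb5 and Zic1. Col6a3, a chain of collagen VI, had 107 UMIs in the cluster over both libraries and stood at 28.3 CPM, 34.3-fold above all other kept nuclei, and Abcb5, a membrane transporter, had 117 UMIs, 26.2-fold above them. These genes were used in forming the cluster, so the values describe it and support nothing else.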
